A study of Arabidopsis thaliana with 24 samples.

Results

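The 46 genes described here encode the nuclear parts of the light reactions and of Rubisco in Arabidopsis thaliana: 6 LHCA and 14 LHCB antenna proteins, 12 subunits of photosystem I, 10 subunits of photosystem II and 4 small subunits of Rubisco. They were taken by gene identifier from 32833 genes in the deposited tables, by a rule that uses no measured value but was drawn up with earlier results of these data known. All 46 were present in the tables, and 45 passed the filter of at least 1 FPKM (a fragment count corrected for exon length and for library size) in at least 3 libraries. The remaining gene, LHCB1.5 (AT2G34420), was listed at 0 in all 24 libraries. Transcripts were measured in whole seedlings of the ecotype Columbia 0, in 4 genotypes: wild type (WT), nrp1 nrp2 (a double mutant), FyPP3DN (a line), and nrp1 nrp2 with FyPP3DN. FyPP3 is a catalytic subunit of the protein phosphatase PP6, FyPP3DN is a dominant-negative form of it, and NRP1 and NRP2 are asparagine-rich proteins that, by the title of the series, switch FyPP3 off when abscisic acid (ABA) represses growth. Each genotype was left untreated or given 5 µM ABA for 24 h, with 3 replicate libraries in each of the 8 groups. The labels give an age of 5 days before treatment, and the design text 6 days of growth and 1 day of treatment. They do not give the promoter of the FyPP3DN construct, the number of independent lines, or whether replicates were separate cultures; each p-value therefore reflects only how these libraries scatter, which may be technical.

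Light-harvesting proteins bind chlorophyll and pass excitation energy to the reaction centres. LHCB1, LHCB2 and LHCB3 form the trimers of the major antenna of photosystem II, LHCB4, LHCB5 and LHCB6 are its single-protein minor antennas, and the LHCA proteins form a belt at the side of photosystem I. Photosystem II splits water at a site shielded by the extrinsic subunits PSBO, PSBP and PSBQ, photosystem I takes electrons from plastocyanin and hands them to ferredoxin, and Rubisco, made of plastid-encoded large and nuclear-encoded small subunits, fixes carbon dioxide. Transcription of these nuclear genes is known to respond to light, to the clock, to the state of the chloroplast and to ABA.

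Depth, recovered from the step that 1 fragment makes in the FPKM of short genes, lay between 16.5 and 29 M fragments per library (M, the SI prefix mega). The libraries were of 2 kinds, by the part of the summed FPKM that came from plastid-encoded genes: 9.61% to 18.8% in 8 plastid-rich libraries (1 per group) and 0.0252% to 0.0877% in the other 16, called plastid-poor. Both poly(A) selection and rRNA removal are named in the labels, but not per library. FYPP3 was at 18.3, 15.7 and 12.7 FPKM in the WT libraries without ABA and at 46.7, 34.5 and 85.2 FPKM in those of FyPP3DN. In the untreated libraries that carry the label nrp1 nrp2 FyPP3DN, called the labelled combination from here on, its values of 13.5, 12.9 and 12.8 FPKM were not above WT, so every direction drawn from that group rests on its label. AT3G27090, an NRP gene, was at 65.8 to 69.2 FPKM in untreated WT, at 18.7 to 21.1 in nrp1 nrp2 and at 16.5 to 19.7 in the labelled combination. The other NRP gene, AT5G42050, was not lower in either mutant group: it was at 29.6 to 31.7 FPKM in untreated WT, at 44.0 to 69.7 in nrp1 nrp2 and at 58.5 to 73.95 in the labelled combination, without overlap with WT. Its level therefore goes against a double loss of transcript, and directions drawn from the libraries labelled nrp1 nrp2 rest on that label too.

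The members included the most abundant nuclear transcripts of these seedlings. In untreated WT, LHCB1.3 (AT1G29930, chromosome 1, 10477885 to 10479114, as all coordinates here in RefSeq assembly TAIR10.1), a major-antenna gene, was the highest of all genes at 14840.4, 16766 and 19278 FPKM. RBCS1A, a Rubisco small subunit gene, came next at 16412, 13380 and 13110 FPKM. These libraries overlapped, so the order of these genes was not resolved. LHCB1.3 made up 14.9% and RBCS1A 12.6% of the FPKM summed over the 46 genes, and the 46 together held between 13.7% and 21.2% of nuclear FPKM over the 24 libraries, with a median of 17.4%.

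The most abundant member of each other family was lower than these. The most abundant subunit transcript of photosystem II was PSBR, which stabilises the water-splitting side, at 5259, 4624 and 5154 FPKM in untreated WT. Among photosystem I antenna genes LHCA1 led at 3420.3, 3408 and 3764 FPKM, ahead of LHCA4 at 3250.1, 3386 and 3806 FPKM, and the values of these partners in the antenna belt overlapped. LHCB5, a minor antenna, was at 2610.4, 3081 and 3232 FPKM, and PSAO, a small photosystem I subunit on the side where the major antenna docks, at 2298, 2608 and 2711 FPKM. At the other end, LHCA5 and LHCA6, which link photosystem I to the NADH dehydrogenase-like complex, had means of 95.3 ± 9.52 and 75.2 ± 2.50 FPKM (SD, n = 3), and LHCB2.3 one of 144 ± 19.0 FPKM (SD, n = 3). LHCB4.3 was at 9.42, 8.02 and 7.74 FPKM and ranked 10475 of all genes, against rank 16 for its paralogue LHCB4.1.

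**Figure D1:**
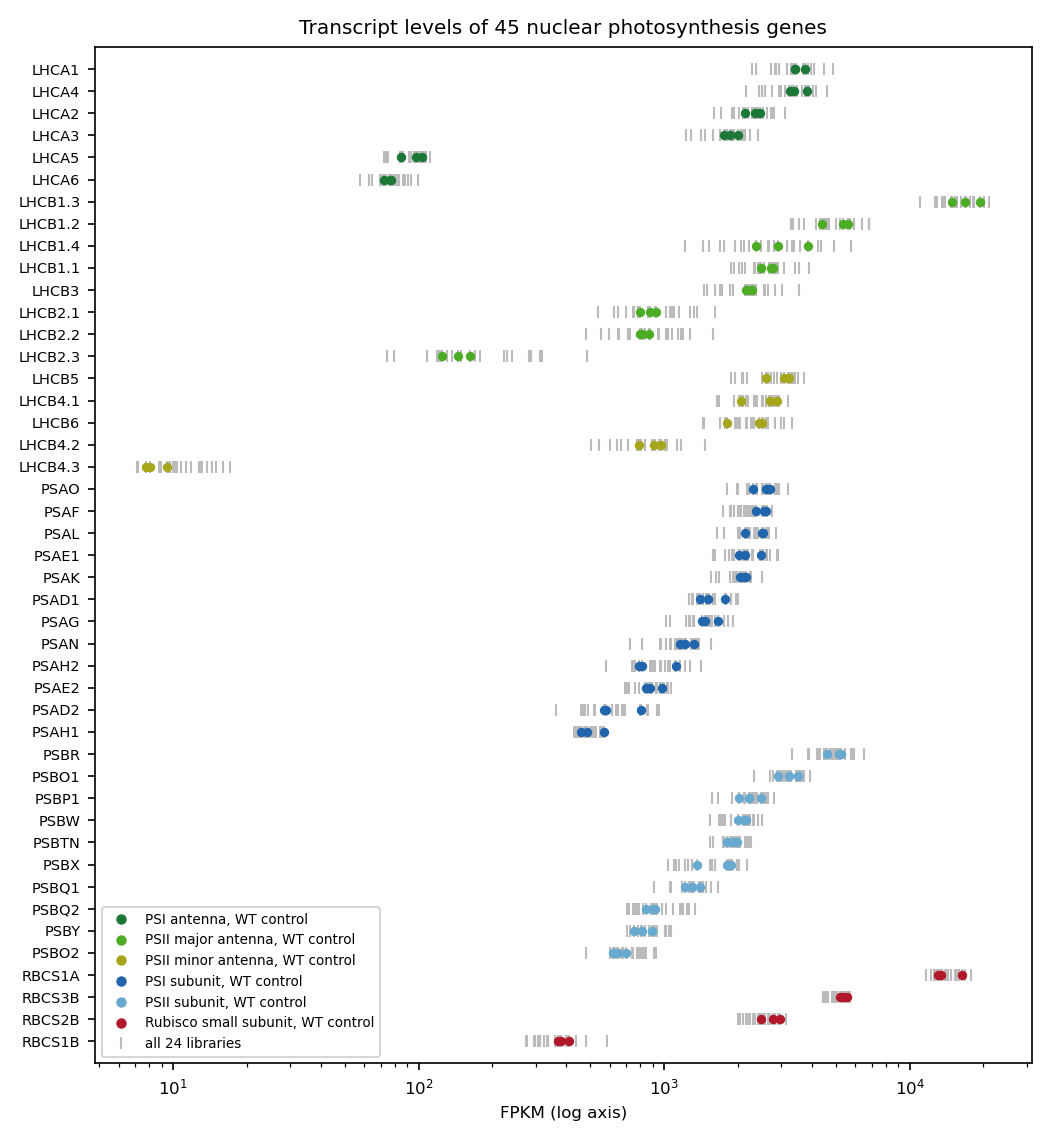
FPKM on a log axis for the 45 members with values, by family: filled points are the 3 untreated WT libraries and grey ticks all 24 libraries of the 8 groups. LHCB1.3 and RBCS1A lie highest, between 11052 and 21150 FPKM over the 24 libraries, and LHCB4.3 lowest, between 7.16 and 17.0 FPKM.

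Several members are near-identical copies, and the sources used here do not say how fragments that match more than 1 gene were counted. Of all windows of 100 bases along the RefSeq transcripts, 12.4% of those of LHCB2.2 and 9.87% of those of LHCB2.1 also occur in another gene, each in the other of this pair. For RBCS3B the share was 12.1% and for RBCS1B 7.47%, again each with the other. LHCB1.1 shared 4.44%, LHCB1.3 3.27% and LHCB1.2 1.51% of windows. LHCB1.4 shared 3.30% and LHCB1.5, the gene listed at 0, 4.23%, each with the other. Levels and differences of these 9 genes are uncertain, and the shares do not bound by how much: whether counting left LHCB1.5 out or found no fragment of it is not known. The other 37 members shared no window.

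The kind of library moved the members too. Within groups, limma on log2(FPKM + 1) called 20 of the 45 lower and 8 higher in the plastid-rich libraries at an adjusted p under 0.05, against 27.2% of all 19500 genes tested lower and 14.3% higher. PSBX was lower by a log2 difference of -0.56 and LHCB1.4 by -0.48, and PSAD2 was higher by 0.42 and PSAH2 by 0.41. Antenna genes were called lower (13 of 19) and never higher, whereas 6 of 12 photosystem I subunits and 2 of 4 Rubisco genes were higher. Of 18 root marker genes tested, 14 were lower in the plastid-rich libraries, with a median of -0.62. Each group held 1 plastid-rich library, so the kind of library adds to the spread within groups and leaves the differences between group means balanced. A fit that takes it as a block is given below beside the comparisons in which it changed the calls.

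ABA was compared with no ABA within each genotype and as the mean of the 4 genotypes. In the mean of the 4 genotypes 8 antenna and photosystem II genes, among them all 3 LHCB2 genes, and 2 photosystem I subunit genes rose, and RBCS1B and RBCS3B fell. The other 33 tested members did not pass. Of 45 members, 10 thus rose, against 12.8% of all genes tested, and 2 fell, against 11.5% (limma, Benjamini-Hochberg adjusted p under 0.05). The median log2 difference was 0.12 over the members and 0.002 over all genes, and 38 members had a positive difference and 7 a negative one. The median was 0.11 in the plastid-rich and 0.13 in the plastid-poor libraries, and the values of the labelled combination are given below. Of the 12 calls, 10 held without any single library, and those of LHCA2 and PSAH2 did not. No member's 12 ABA libraries lay wholly above or below its 12 untreated ones, as 1.55% and 1.17% of all genes did. With the library type as a block 19 members rose and 2 fell, against 16.4% and 15.1% of all genes. Fewer cells of a type and less RNA per cell cannot be told apart in whole seedlings.

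The major antenna of photosystem II carried the largest differences, with 4 of 8 tested members called higher, none lower, and a median of 0.31. These were LHCB3 and all 3 LHCB2 genes. The LHCB2 proteins are phosphorylated when the antenna moves between the photosystems. LHCB2.3 (AT3G27690, chromosome 3, 10255906 to 10257489) ranged from 74.7 to 223 FPKM with a median of 131 over the 12 untreated libraries, and from 121 to 487 with a median of 261 over the 12 ABA libraries. The ranges overlapped, with the ABA range reaching higher. Its mean log2 difference was 0.87 (SE 0.14, adjusted p = 8.09e-05). LHCB2.2 (AT2G05070, chromosome 2, 1799234 to 1800472) went from a median of 805 FPKM (482 to 1041) to 1061 FPKM (657 to 1584), a log2 difference of 0.46 (SE 0.12, adjusted p = 0.00550). LHCB2.1 (AT2G05100, chromosome 2, 1822990 to 1824480) went from 836 FPKM (536 to 1101) to 1063 FPKM (749 to 1613), with 0.42 (adjusted p = 0.0104). For both genes the 2 sets of libraries overlapped widely. LHCB3, a further protein of the trimers, rose by 0.28. The 4 tested LHCB1 genes, from 0.06 for LHCB1.3 to 0.35 for LHCB1.4 (adjusted p = 0.0728), did not pass.

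The 3 LHCB2 genes are shown by the 250 bases before their most frequent transcript start in RefSeq (assembly TAIR10.1), because all 3 were called higher. Where starts were equally frequent, the start nearest the coding side was used. Capitals mark CCAATC, which holds the site of NF-Y factors, GATAAG, the I-box of light-regulated promoters, CACGTG, the G-box bound by bZIP and bHLH factors, and ACGTGNC, the core of the ABA-responsive element (ABRE), in either orientation.
LHCB2.1 (chr2:1824481-1824730, minus strand): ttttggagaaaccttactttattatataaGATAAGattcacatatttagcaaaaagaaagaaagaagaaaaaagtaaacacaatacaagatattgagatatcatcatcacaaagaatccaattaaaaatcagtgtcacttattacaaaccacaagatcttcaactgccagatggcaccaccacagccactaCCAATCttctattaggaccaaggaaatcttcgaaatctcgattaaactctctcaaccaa
LHCB2.2 (chr2:1800473-1800722, minus strand): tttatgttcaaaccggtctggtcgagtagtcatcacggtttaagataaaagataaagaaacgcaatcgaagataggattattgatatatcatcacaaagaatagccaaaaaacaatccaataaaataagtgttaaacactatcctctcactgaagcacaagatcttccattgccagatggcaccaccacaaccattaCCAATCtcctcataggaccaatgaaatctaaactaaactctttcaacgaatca
LHCB2.3 (chr3:10255691-10255940, plus strand): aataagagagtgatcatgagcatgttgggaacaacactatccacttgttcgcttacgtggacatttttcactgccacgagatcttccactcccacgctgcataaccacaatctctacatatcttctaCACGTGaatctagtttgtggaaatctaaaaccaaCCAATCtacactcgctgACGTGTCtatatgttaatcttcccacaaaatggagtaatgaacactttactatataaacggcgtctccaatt
All 3 held CCAATC, 59 bases before the start in LHCB2.1, 53 in LHCB2.2 and 89 in LHCB2.3. LHCB2.3 alone of the 3 also held a G-box and an ABRE core. For LHCB2.3, which has a pair of annotated starts, the last bases of this stretch lie inside the longer transcript. CCAATC occurred in 5 of 9 major-antenna promoters and in 12 of all 46 (26.1%), against 10.4% of 27443 Arabidopsis promoters of the same length. These are letter matches, not measured binding sites.

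Over all 46 promoters the G-box occurred in 14 (30.4%, against 6.72% of all promoters) and the ABRE core in 19 (41.3%, against 8.89%), and these motifs share letters and can overlap. The I-box occurred in 18 (39.1%, against 12.5%). AAAAATCT, the binding site of the clock factor CCA1, occurred in 6 (13.04%, against 6.49%), and TATAAA, searched on the sense strand only, in 13 (28.3%, against 32.5%). In genes with several annotated starts this stretch can lie inside the longest annotated transcript. It did so wholly for LHCA3 and PSBP1 and nearly so for RBCS1A, each of which counts here as holding a G-box and an ABRE core.

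Of the 6 antenna genes of photosystem I, 2 rose. LHCA1 was at 2285.5 to 4076 FPKM (median 3354) without and 2869 to 4855 FPKM (median 3702) with ABA, overlapping widely, for a log2 difference of 0.22 (SE 0.06, adjusted p = 0.0160). LHCA2 rose by 0.19, a call lost when any 1 of 14 of the 24 libraries was left out (adjusted p up to 0.0866), and the other 4 LHCA genes, from 0.01 for LHCA5 to 0.14 for LHCA6, did not pass. None of the 5 minor-antenna genes was called (1 had an unadjusted p under 0.05), and their median was 0.12, with LHCB6 at 0.27 and LHCB4.3 at 0.04.

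Among the extrinsic proteins of water splitting, the less abundant copies passed the test. PSBQ2 (AT4G05180, chromosome 4, 2671523 to 2673243) went from 718 to 982 FPKM (median 830.1) without to 709.8 to 1338 FPKM (median 1126) with ABA, and its log2 difference was 0.34 (SE 0.06, adjusted p = 0.000260). The ABA values overlapped the untreated ones only at their lower end, where the FyPP3DN libraries lay. PSBO2 went from a median of 664 FPKM (480.2 to 783) to 819 FPKM (629 to 929), with 0.29 (SE 0.07, adjusted p = 0.00359), and these sets overlapped. Their more abundant paralogues had log2 differences of -0.09 for PSBQ1 and 0.13 for PSBO1, neither called, and the difference between paralogues was not tested. The other 6 photosystem II subunits, among them PSBP1 at 0.07 and PSBR at 0.06, were not called either. PSBQ2 was called in 3 of the 4 genotypes (below), and its promoter is shown with the same motifs in capitals; in it 2 G-boxes overlap 3 ABRE cores.
PSBQ2 (chr4:2673244-2673493, minus strand): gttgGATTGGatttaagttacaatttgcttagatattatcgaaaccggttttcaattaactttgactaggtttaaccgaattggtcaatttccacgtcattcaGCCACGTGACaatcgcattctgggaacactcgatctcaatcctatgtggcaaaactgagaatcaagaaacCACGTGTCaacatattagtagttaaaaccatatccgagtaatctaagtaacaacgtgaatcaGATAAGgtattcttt

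Of 12 photosystem I subunits, PSAE1 and PSAH2 rose and none fell. PSAE1, which helps dock ferredoxin on the stromal side, went from a median of 2065 FPKM (1577 to 2593) to 2478 FPKM (1831 to 2921), a log2 difference of 0.26 (SE 0.07, adjusted p = 0.0103), with overlapping ranges. PSAH2, at the docking site of the mobile antenna, rose by 0.30 (adjusted p = 0.0341), a call lost without any 1 of 11 of the 24 libraries (adjusted p up to 0.0690). PSAF and PSAN, the lumenal subunits that bind plastocyanin, had negative differences of -0.11 (adjusted p = 0.107) and -0.15 (adjusted p = 0.129).

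Of the 4 Rubisco small subunit genes 2 fell, and the median of the 4 mean differences was -0.15. The FPKM summed over the 4 was lower on average with ABA in WT (22809 without and 20043 with ABA) and in the labelled combination (23594 and 20304), but not in nrp1 nrp2 (22069 and 22502) or FyPP3DN (22329 and 23407). RBCS1B went from 326 to 588 FPKM (median 378) without to 274 to 439.6 FPKM (median 323) with ABA and fell by 0.29 on the log2 scale (SE 0.07, adjusted p = 0.00501). RBCS3B went from a median of 5289.7 FPKM (4524 to 5739.6) to 4628 FPKM (4425 to 5304) and fell by 0.16 (SE 0.05, adjusted p = 0.0211). Both pairs of ranges overlapped. RBCS2B, with medians of 2640.3 and 2272 FPKM, had -0.15 (adjusted p = 0.161), and RBCS1A, with medians of 14513 and 13489 FPKM, had -0.03 (adjusted p = 0.841).

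By genotype, the separation of the Rubisco genes' libraries was as follows. In WT, RBCS3B was at 5548, 5359.6 and 5219.7 FPKM without and at 4562, 4432 and 4528 FPKM with ABA, and RBCS1B at 379, 370.1 and 411 against 307, 335 and 274 FPKM; neither gene's groups overlapped, as for 10.9% of all genes in that direction. In the labelled combination none of the 4 genes' groups overlapped, all being lower (12.3% of all genes): RBCS1A went from 15509.9, 14708 and 14317 to 13455, 12213 and 13383 FPKM, and RBCS3B from 5669, 5059 and 5739.6 to 4579.96, 4442 and 4675 FPKM. In FyPP3DN, RBCS1A was at 15887, 15296 and 11619 FPKM without and 17852, 13523 and 15525 with ABA, with wide overlap. In nrp1 nrp2 no Rubisco gene's groups lay apart: RBCS1B was at 336, 405 and 326 FPKM without and 361, 295 and 313 with ABA, and RBCS3B at 5015, 5196 and 5483 and then 5016, 4826 and 4913 FPKM. In the plastid-rich libraries of nrp1 nrp2 all 4 were higher with ABA (median 0.10) and in the plastid-poor ones 1 (median -0.10); in FyPP3DN 3 (median 0.15) and 1 (median -0.14) were higher. No single genotype gave a call for a Rubisco gene (smallest adjusted p = 0.0616, for RBCS1B in the labelled combination, and 0.0415 once library type was a block), and no difference between genotypes in their response was called. RBCS2B was at 2957, 2490.4 and 2790.2 FPKM in untreated WT and at 2576, 2039 and 2175 FPKM with ABA, which overlapped.

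The 2 called Rubisco genes lie close together on chromosome 5, with RBCS2B between them, and their promoters are shown because all 4 RBCS promoters held the I-box and none held CCAATC. Capitals mark the motifs named above.
RBCS1B (chr5:15385248-15385497, minus strand): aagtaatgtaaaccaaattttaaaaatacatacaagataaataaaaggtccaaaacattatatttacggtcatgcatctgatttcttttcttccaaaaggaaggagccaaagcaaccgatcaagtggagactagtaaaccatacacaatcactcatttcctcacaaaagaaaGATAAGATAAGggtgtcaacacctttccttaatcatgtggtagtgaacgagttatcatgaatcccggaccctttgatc
RBCS3B (chr5:15378417-15378666, minus strand): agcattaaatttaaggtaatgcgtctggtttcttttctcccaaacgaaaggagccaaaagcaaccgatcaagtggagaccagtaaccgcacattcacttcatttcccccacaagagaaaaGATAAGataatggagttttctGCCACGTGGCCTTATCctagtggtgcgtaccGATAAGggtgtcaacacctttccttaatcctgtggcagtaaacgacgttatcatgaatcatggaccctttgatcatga
RBCS1B had 2 I-boxes in a row, at 78 and 73 bases before the start, and neither a G-box nor an ABRE core. RBCS3B had 3 I-boxes and a G-box that overlaps 2 ABRE cores. RBCS1A and RBCS2B held a G-box and an ABRE core as well. RBCS1B and RBCS3B each have a pair of annotated starts, so the stretch shown overlaps the longer transcript. For RBCS3B, whose annotated gene extends to 15378642, most of the stretch and every marked motif lie inside that transcript.

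**Figure D2:**
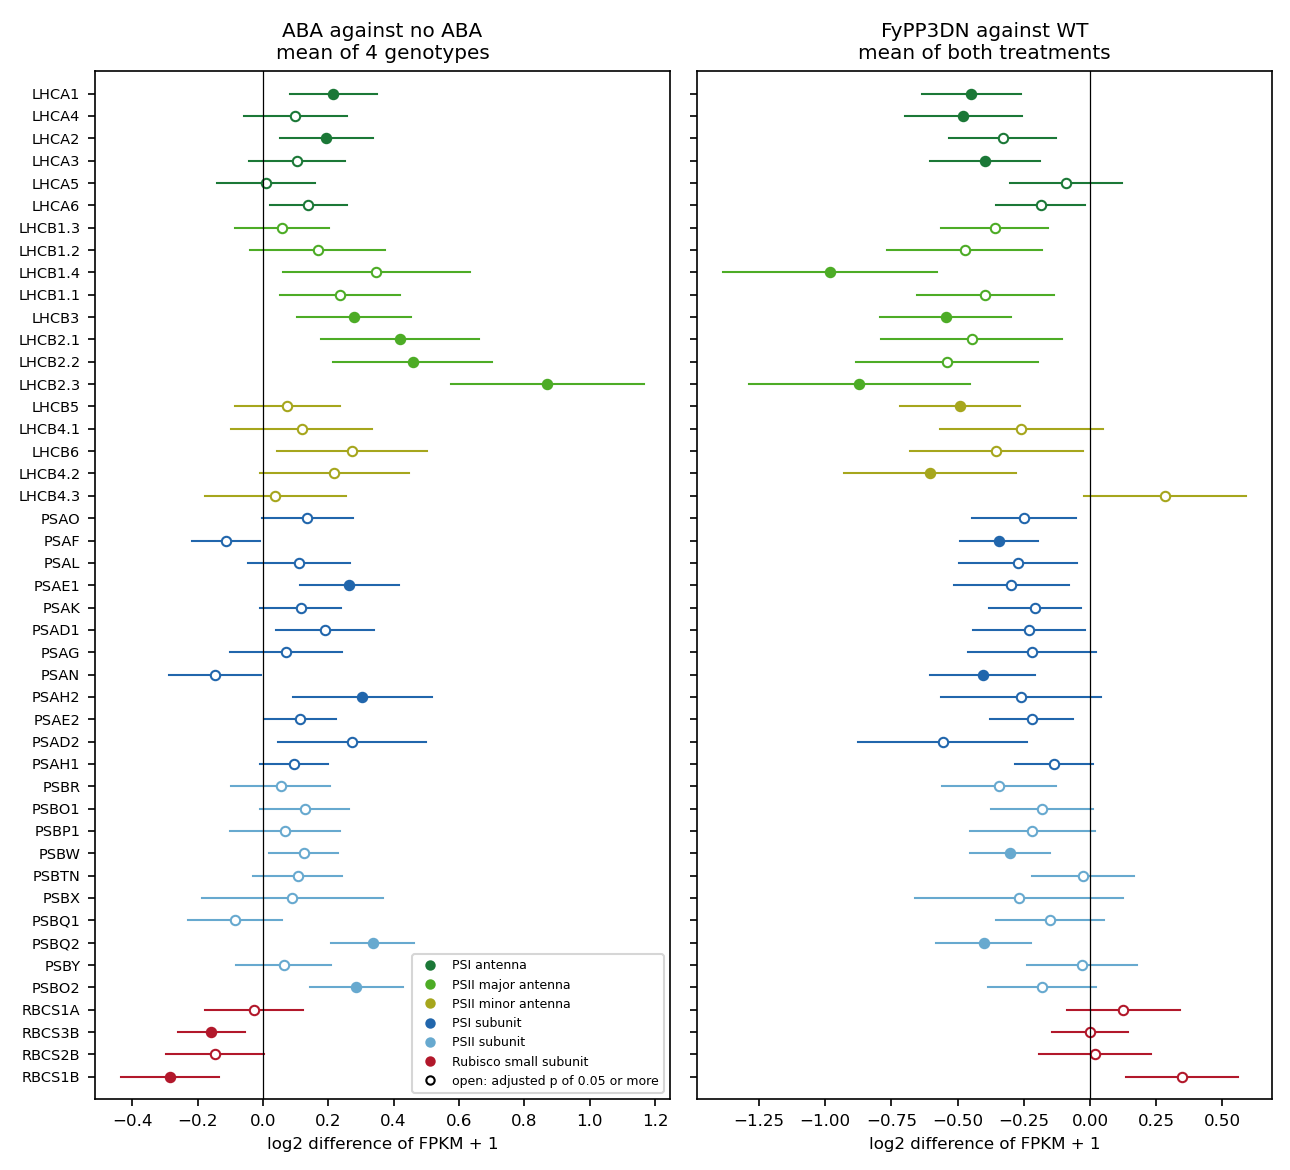
Log2 difference of FPKM + 1 for each of the 45 tested members (points, with 95% confidence intervals as lines), for ABA against no ABA as the mean of 4 genotypes on the left and for FyPP3DN against WT as the mean of both treatments on the right; filled points passed an adjusted p of 0.05. LHCB2.3 stands highest on the left at 0.87, and on the right LHCB1.4 stands lowest at -0.98 with the Rubisco genes at or above 0.

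Within single genotypes few members passed. In WT 2 rose and none fell, against 4.47% and 3.24% of all genes. LHCB2.3 went from 163, 145 and 125 FPKM to 287, 239.7 and 487 FPKM, without overlap, a log2 difference of 1.17 (SE 0.28, adjusted p = 0.0120). PSBQ2 went from 903, 841 and 918 FPKM to 1239.97, 1019 and 1338 FPKM, also without overlap, with 0.43 (SE 0.12, adjusted p = 0.0343). Counting by overlap, 6 members lay wholly higher with ABA in WT (11.8% of all genes did) and 2 wholly lower (10.9%). The third ABA library of WT was the highest of its group for 17 of 19 tested antenna genes; without it LHCB2.3 had 0.87 (adjusted p = 0.0928) and no member was called. The count was also 0 without the third untreated WT library and 1 without the first or second untreated library or the first ABA library. The block for library type added PSBO2 (0.37, adjusted p = 0.0293), so that 3 rose, against 6.08% of all genes, and none fell, against 5.03%.

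In the libraries labelled nrp1 nrp2 1 member rose and none fell, against 3.14% and 2.87% of all genes. It was PSBQ2, from 779.5, 787 and 887 FPKM to 1090.0, 1195 and 983 FPKM without overlap, with 0.41 (SE 0.12, adjusted p = 0.0493), a call lost without any of 5 of the 6 libraries (the third ABA library being the exception). The library type block added LHCA2 (0.34, adjusted p = 0.0356), so that 2 rose, against 4.4% of all genes, and none fell, against 4.56%. LHCB2.3 was at 137, 122 and 223 FPKM without and at 177.5, 229 and 282 FPKM with ABA, which overlapped (0.54, adjusted p = 0.399). The shift was small but broad, with 40 of 45 differences positive, a median of 0.23 against -0.05 over all genes, and 14 members wholly higher with ABA (7.82% of all genes) and none wholly lower (9.35%).

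In FyPP3DN no member was called in either direction by limma, against 2.92% of all genes higher and 3.04% lower, and 2 had an unadjusted p under 0.05. LHCB2.3 went from 108, 74.7 and 119 FPKM to 121, 130.5 and 169.6 FPKM, the ABA values just above the untreated ones (0.49, adjusted p = 0.393). PSBQ2 was at 745, 718 and 819 FPKM without and at 709.8, 765 and 935 FPKM with ABA, overlapping (0.07, adjusted p = 0.829). Here 6 members lay wholly higher with ABA (9.14% of all genes) and none wholly lower (7.02%). With the library type as a block 1 member, PSAE1, was called higher (0.35, adjusted p = 0.0395), against 5.02% of all genes, and none lower, against 5%.

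In the labelled combination 2 members rose, against 6.8% of all genes, and 1 fell, against 4.62%. LHCB2.3 went from 149, 79.4 and 162 FPKM to 288, 319 and 314 FPKM, the clearest separation of the 4 genotypes, with 1.29 (SE 0.28, adjusted p = 0.00392). PSBQ2 went from 982, 779.6 and 912 FPKM to 1268, 1161 and 1172 FPKM, without overlap, with 0.43 (SE 0.12, adjusted p = 0.0224). PSAF, the plastocyanin-docking subunit, went the other way, from 2633, 2498 and 2550.1 FPKM to 1875, 2119 and 2144 FPKM without overlap, and fell by 0.33 (SE 0.10, adjusted p = 0.0385). The PSAF call was lost without any 1 of 5 of the 6 libraries (adjusted p up to 0.183), with no filter on low values, in the plastid-poor libraries alone and with only the groups compared in the fit. Counting by overlap, 3 members were wholly higher with ABA (19.3% of all genes) and 6 wholly lower (12.3%), the latter being PSAF, PSAN and the 4 Rubisco genes. With same-numbered replicates as a block, 4 members rose and 1 fell, LHCB2.1 and LHCB2.2 being added, against 7.6% and 5.44% of all genes. Blocking on library type instead, 3 rose and 2 fell, against 10.2% and 6.99%, PSAH2 (0.35, adjusted p = 0.0303) and RBCS1B (-0.43, adjusted p = 0.0415) being added. Over all 45 members the median was 0.04, as it was over all genes, with 27 differences positive and 18 negative. It was -0.10 in the plastid-rich libraries, where 28 of 45 were lower with ABA, and 0.11 in the plastid-poor ones. Without the second untreated or the first ABA library, 1 member was called.

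The differences between genotypes in the ABA response were tested directly. No member was called in any of the 3 tests (limma), and none had an unadjusted p under 0.05, against 0.0103% of all genes called higher and 0.133% lower for FyPP3DN minus WT and 0% for the other 2. For LHCB2.3 the response in FyPP3DN minus that in WT was -0.68 (95% confidence interval -1.52 to 0.16, adjusted p = 0.696), and for PSBQ2 -0.35 (-0.71 to 0.004, adjusted p = 0.617). These intervals hold both no difference and differences as large as the WT responses.

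**Figure D3:**
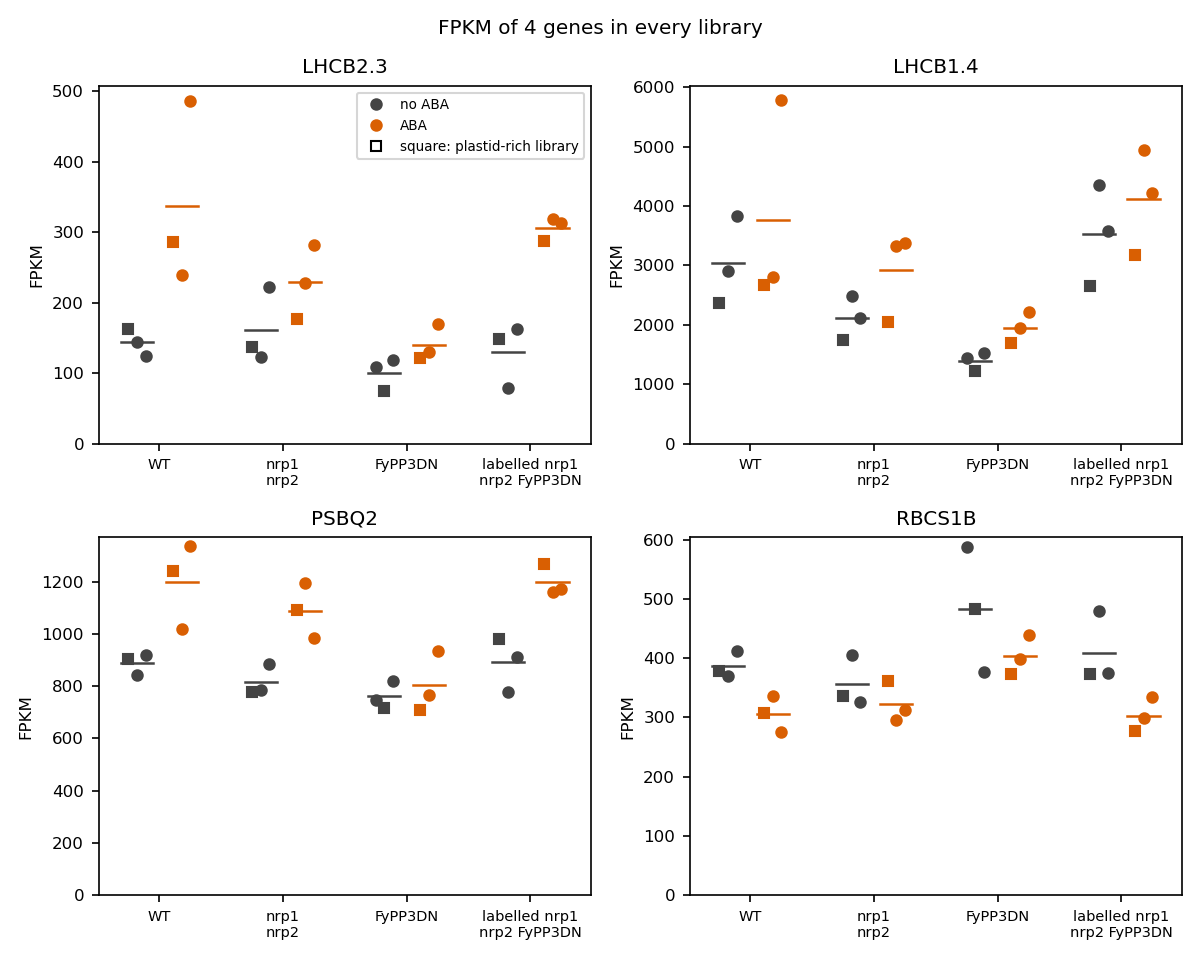
FPKM in each of the 24 libraries for LHCB2.3, LHCB1.4, PSBQ2 and RBCS1B, by genotype without (grey) and with ABA (orange); bars are group means and squares plastid-rich libraries. LHCB2.3 reaches 487 FPKM in WT with ABA and does not exceed 169.6 FPKM in FyPP3DN, where LHCB1.4 also lies between 1214 and 2209.7 FPKM.

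FyPP3DN was compared with WT without ABA, with ABA and, as a comparison added after the values were seen, as the mean of both treatments; each used the same WT libraries as the other genotypes. In the mean of both treatments 12 of 45 members were lower than in WT and none was higher, against 1.21% and 0.713% of all genes tested (limma, adjusted p under 0.05). The median log2 difference was -0.27 over the members and -0.01 over all genes, 40 members had a negative difference, and 29 had an unadjusted p under 0.05. The lower members were antenna genes and photosystem subunits, and no Rubisco gene was among them. The calls of LHCA1, LHCB1.4 and PSAF held without any single library, and each of the other 9 was lost without at least 1. The median was -0.30 in the plastid-rich and -0.29 in the plastid-poor libraries.

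The number of calls depended on the fit. It was 25 lower and 1 higher with the library type as a block, against 3.43% and 2.68% of all genes, 1 in the plastid-poor libraries alone and 0 when the fit held only the groups compared. It was 7 without the second untreated WT library or the first untreated FyPP3DN library, 6 without the second untreated FyPP3DN library, 4 without the third untreated WT or the second ABA-treated FyPP3DN library, and 3 without the third ABA-treated WT or the first ABA-treated FyPP3DN library. For the fits on fewer libraries the share of all genes called is not given here. A loss of calls among the members was therefore not set against a loss over all genes, and is not read as a result about the members. The sum over the members was 110145, 111717 and 118774 FPKM in untreated WT and 98042, 87266 and 91956 FPKM in untreated FyPP3DN, without overlap. With ABA it was 111169, 108966 and 136895 FPKM in WT and 98870.0, 94583 and 110567 FPKM in FyPP3DN, with overlap.

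In the major antenna, LHCB1.4 (AT2G34430, chromosome 2, 14524607 to 14525918) showed the largest difference. It was at 2374, 2912 and 3842 FPKM in untreated WT and at 1444, 1214 and 1517 FPKM in untreated FyPP3DN. With ABA the values were 2672, 2812 and 5796 FPKM against 1697, 1949 and 2209.7 FPKM. All 6 FyPP3DN libraries lay below all 6 WT libraries, and the mean log2 difference was -0.98 (SE 0.19, adjusted p = 0.0108). LHCB3 ranged from 1449 to 2205 FPKM (median 1652) in FyPP3DN and from 2149 to 3539.8 FPKM (median 2304) in WT, overlapping at 1 library, with -0.54 (SE 0.12, adjusted p = 0.0205). LHCB2.3 was lower by -0.87 (SE 0.20, adjusted p = 0.0284). The other 5 tested genes of this antenna had negative differences from -0.36 for LHCB1.3 to -0.54 for LHCB2.2 and did not pass, so that 3 of 8 were called, with a median of -0.51.

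In photosystem I, LHCA1 ranged from 2285.5 to 3359.9 FPKM (median 2795) in FyPP3DN and from 3408 to 4855 FPKM (median 3559) in WT, without overlap, and was lower by -0.45 (SE 0.09, adjusted p = 0.0121). LHCA4, its partner in the belt, ranged from 2165.6 to 3115 FPKM (median 2510.2) and from 3250.1 to 4610.4 FPKM (median 3359), also without overlap, with -0.48 (SE 0.11, adjusted p = 0.0222). LHCA3 was lower by -0.40, LHCA2 with -0.33 (adjusted p = 0.0798) did not pass, and LHCA5 and LHCA6, which serve the NADH dehydrogenase-like complex, had -0.09 and -0.19 and were not called. PSAF ranged from 1734 to 2057 FPKM (median 1962) in FyPP3DN and from 2221 to 2759 FPKM (median 2468) in WT, without overlap, with -0.34 (SE 0.07, adjusted p = 0.0137). PSAN, which also serves plastocyanin, was lower by -0.40 (adjusted p = 0.0316), and the other 10 subunits had differences from -0.14 to -0.56 and were not called.

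In photosystem II, PSBQ2 ranged from 709.8 to 935 FPKM (median 755) in FyPP3DN and from 841 to 1338 FPKM (median 968) in WT, overlapping in part, and was lower by -0.40 (SE 0.09, adjusted p = 0.0185). PSBW, a small membrane subunit, was lower by -0.30 (adjusted p = 0.0337), and the other 8 subunits had differences from -0.03 to -0.34 and were not called. Of the minor antennas, LHCB5 was lower by -0.49 (adjusted p = 0.0222) and LHCB4.2 by -0.60 (adjusted p = 0.0498), and LHCB4.1 and LHCB6 had -0.26 and -0.35 and were not called. LHCB4.3 had 0.28 (adjusted p = 0.367), with 0.56 in the plastid-poor and -0.27 in the plastid-rich libraries. Over 6 against 6 libraries, 6 members lay wholly lower in FyPP3DN (0.472% of all genes) and none wholly higher (0.333%): LHCA1, LHCA4, LHCB1.3, LHCB1.4, LHCB4.2 and PSAF.

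No Rubisco gene was called lower in FyPP3DN. Their median was 0.07, and all 4 differences were at or above 0. RBCS1B was at 588, 483 and 377 FPKM in untreated FyPP3DN and at 379, 370.1 and 411 FPKM in untreated WT, with overlap, and at 372, 399 and 439.6 against 307, 335 and 274 FPKM with ABA, without overlap. Its mean log2 difference was 0.35 (95% confidence interval 0.14 to 0.56, adjusted p = 0.0778), and the adjusted p was 0.0421 with the library type as a block. RBCS1A had 0.13 (-0.09 to 0.34), RBCS2B 0.02 (-0.19 to 0.23) and RBCS3B 0.0005 (-0.14 to 0.14). Without ABA the Rubisco median for FyPP3DN against WT was -0.18 in the plastid-rich and 0.01 in the plastid-poor libraries. With ABA it was 0.20 and 0.16. In the mean of both treatments 2 of the 4 were lower in the plastid-rich libraries and 0 in the plastid-poor ones. In the mean ABA response the 4 Rubisco genes had differences of the opposite sign to the antenna medians. For FyPP3DN against WT the Rubisco median did so in the mean of both treatments, but not in the plastid-rich libraries without ABA. The difference between these families was not tested.

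Taken by treatment, the same comparison gave fewer calls. Without ABA no member was called by limma, against 0.246% of all genes higher and 0.333% lower, although 19 had an unadjusted p under 0.05 and 42 of 45 differences were negative, with a median of -0.27. In that treatment 21 members lay wholly below WT (8.11% of all genes) and none wholly above (6.13%). The smallest adjusted p was that of LHCA1, at 2372, 2285.5 and 2721 FPKM against the WT values given above (-0.52, adjusted p = 0.0718), and LHCB1.4 had -1.11 (adjusted p = 0.0760). With the library type as a block 6 were lower, against 1.32% of all genes: LHCA1, LHCA4, LHCB1.2, LHCB1.4, LHCB5 and PSAD2.

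With ABA 2 members were lower and none higher, against 0.769% and 0.123% of all genes. LHCB2.3 was at 121, 130.5 and 169.6 FPKM against 287, 239.7 and 487 FPKM in WT, without overlap, with -1.21 (SE 0.28, adjusted p = 0.0447). PSBQ2, at 709.8, 765 and 935 FPKM against 1239.97, 1019 and 1338 FPKM, did not overlap either, with -0.58 (SE 0.12, adjusted p = 0.0231). The median was -0.26, 39 differences were negative, 17 members lay wholly lower (8.49% of all genes) and 2, RBCS1A and RBCS1B, wholly higher (6.54%). With same-numbered replicates as a block 8 were lower, against 0.928% of all genes, and with the library type as a block 10, against 1.52% of all genes. Both calls were lost without the first WT library, the third WT library, or the first or second FyPP3DN library, in the plastid-poor libraries alone and when the fit held no other group, and 4 members were called without the third FyPP3DN library.

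Neither of the other genotypes gave a call. For the libraries labelled nrp1 nrp2 against WT limma called no member without ABA (3 with an unadjusted p under 0.05, against 0.0154% of all genes called higher and 0.0769% lower), with ABA (1, against 0.0256% and 0.041%) or in the mean of both treatments (2, against 0.0513% and 0.0872%). The median of that mean was -0.13, with 38 of 45 differences negative. LHCB4.3, the rare minor-antenna gene, went against this. It was at 12.9, 11.9 and 14.4 FPKM in untreated nrp1 nrp2 and at 17.0, 13.1 and 14.9 FPKM with ABA, against 9.42, 8.02 and 7.74 and then 10.4, 10.7 and 8.74 FPKM in WT. Without ABA 1 member (LHCB4.3) lay wholly above WT and 7 wholly below (5.27% and 5.15% of all genes), and with ABA 4 and 0 (1.57% and 3.31%). For LHCB4.3 all 6 nrp1 nrp2 libraries lay above all 6 WT libraries (0.118% of all genes did), with a log2 difference of 0.56 that did not pass (95% confidence interval 0.26 to 0.87, adjusted p = 0.270). No other member lay wholly higher over these 12 libraries, and none wholly lower (0.185% of all genes did).

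For the labelled combination against WT no member was called without ABA (0 with an unadjusted p under 0.05, against 0.0359% of all genes called higher and 0.0462% lower), with ABA (1, against 0.0205% and 0.0667%) or in the mean (0, against 0.0974% in each direction). The median difference was 0.03, with 32 positive and 13 negative. Wholly above and below WT lay 2 and 0 members without ABA (3.3% and 6.59% of all genes), 1 and 1 with ABA (4.65% and 3.61%) and 0 and 0 over both (0.154% and 0.21%). LHCB1.4 was at 2660.2, 4348 and 3589 FPKM without and at 3174, 4940.1 and 4226 FPKM with ABA, overlapping WT in both treatments, and its mean difference was 0.21 (95% confidence interval -0.20 to 0.61). LHCA1 was at 3752, 3735 and 4076 FPKM and then 3858, 4487 and 4466 FPKM, with 0.12 (-0.07 to 0.31).

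**Figure D4:**
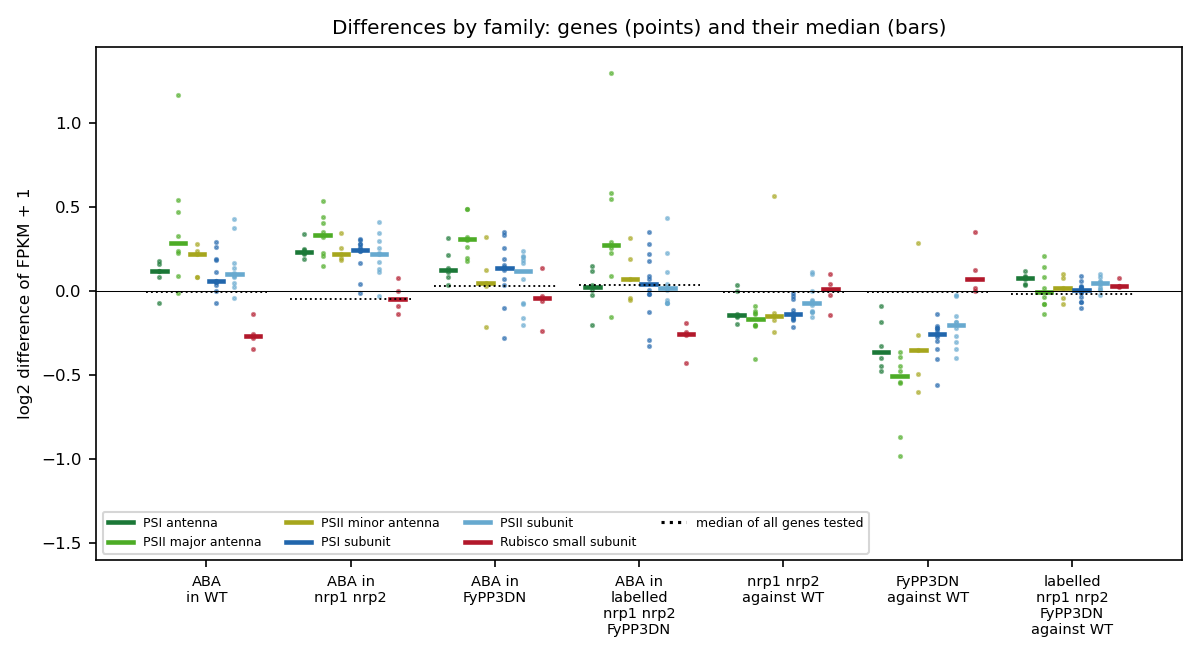
Log2 difference of FPKM + 1 for each tested member (points) and the median of its family (bars) in the ABA response of each genotype and in each genotype against WT as the mean of both treatments; dotted lines are the median of all genes tested. The major-antenna median lies between 0.27 and 0.34 in the ABA responses and at -0.51 for FyPP3DN against WT, where the Rubisco median is 0.07.

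Other lists of photosynthesis genes are to be read against the 12.8% of all genes that rose and the 11.5% that fell in the mean ABA response. Of 19 chlorophyll synthesis genes tested 3 rose and 2 fell: HEMA1, which makes the first committed intermediate, fell by 0.52 on the log2 scale (adjusted p = 1.94e-05), and PORB and PORC, the light-dependent reductases, rose by 0.33 and 0.29. Of 8 genes of chlorophyll breakdown 5 rose and 1 fell, with PPH at 0.28, SGR2 at 0.54 and NYC1 at -0.43. In electron transport 3 of 14 rose and 4 fell, with the plastocyanin gene PETE1 at 0.38, the ferredoxin gene FD2 at -0.66 and the cytochrome subunit gene PETM at -0.48. Of 20 Calvin cycle genes 1 rose, CP12-2 at 0.29, and 1 fell, RPE at -0.21. Among 21 genes of photosystem assembly and regulation 2 rose and 4 fell, with PSBP2 at 1.04, OHP2 at -0.26 and PSB33 at -0.25. Among 20 regulators 3 rose and 3 fell, with PIF4 at 0.63, GLK1, an activator of antenna genes, at 0.53 and HYH at -0.54. None of 19 plastid-encoded photosystem and Rubisco genes was called, in a fit without the library type. Of these 19, 16 were called higher in the plastid-rich libraries, with a median log2 difference of 3.19. With that spread within groups, the test could miss even large differences in them.

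In FyPP3DN against WT, as the mean of both treatments (0.713% of all genes called higher and 1.21% lower), HEMA1 was lower by -0.55 (adjusted p = 0.00897) and PORB by -0.31, the 2 called of 19 chlorophyll synthesis genes. Of 14 electron transport genes FD1 was higher by 0.36 and PGRL1A lower by -0.35. Of 20 regulators HYH was higher by 0.46, and BBX22 and PIF4 were lower by -0.31 and -0.40. No gene of chlorophyll breakdown, the Calvin cycle, or photosystem assembly and regulation was called. None of the 19 plastid-encoded photosystem and Rubisco genes was called either, with the limit given above. The median of the Calvin cycle list was -0.01.

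Markers of root and shoot tissue were measured beside these results, since the whole seedling holds both. The 22 root markers summed to 53.4 to 186 FPKM (median 128) without and 50.01 to 200.4 FPKM (median 93.4) with ABA, and to 53.4 to 138 FPKM in WT and 63.2 to 179 FPKM in FyPP3DN. The 10 shoot epidermis and leaf markers summed to 244 to 375 FPKM (median 309) without and 286 to 464 FPKM (median 371) with ABA, and to 278 to 378 FPKM in WT and 244 to 425 FPKM in FyPP3DN. No marker of either list was at 0 in all libraries. With ABA 1 of 18 tested root markers rose (WOX5, 0.59) and 3 fell (among them PHO1 at -1.22 and IRT1 at -1.20), and 3 of 10 shoot markers rose (CER1 at 1.03, MUTE at 0.39, PDF1 at 0.40) with none falling, against the same 12.8% and 11.5% of all genes. In FyPP3DN against WT none of either list was called, with medians of -0.04 and -0.07. Their part in the differences of the photosynthesis genes was not tested.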

How the data were processed

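RNA of 24 Arabidopsis seedling libraries was sequenced by the authors. The submitters' processing notes name Trimmomatic 0.30, HISAT2 2.0.1 and the genome build TAIR10. Counting tool, annotation and strand: not given in the sources used here. FPKM per gene and library are what the authors deposited. The log2(FPKM + 1) values tested here were computed from the deposited FPKM, which understates changes of low genes. The 19500 genes that reached an FPKM of 1 in 3 or more libraries entered limma 3.58.1 (R 4.3.3) with 1 mean per group over all 24 libraries, a trended variance, 2-sided tests and Benjamini-Hochberg adjustment over all genes, with a threshold of 0.05. There were 17 comparisons, 3 of them added after the values were seen. The fit was tested on simulated data. Groups came from the genotype and treatment labels.

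Depth was recovered from genes of up to 400 bases of exon, of whose values 99.7% to 100% per library were whole fragments within 0.1, and 18242 genes had an FPKM of at least 1 in the median library. A library was called plastid-rich from 5% of FPKM in plastid-encoded genes. In all comparisons of 2 groups but 2, every correlation of same-numbered deviations was over 0.1 (0.153 to 0.858). The exceptions were the 2 with untreated FyPP3DN (lowest -0.592 and -0.677), whose plastid-rich library has another number. Elsewhere same-numbered libraries were also of the same kind, so these correlations do not show whether samples were paired by number.

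The members and lists were chosen with earlier results of these data known. Values in every library are given for the 4 RBCS genes, for called members (the 6 with the smallest adjusted p where more were called) and for the most abundant member of each family; genes outside the 46 are up to 3 called per list with the smallest adjusted p, and the genes of the lines. Alternatives were another pseudocount (0.1), filters (none, or 5 FPKM) and scalings, a replicate block, a library type block, subsets of libraries and leaving out each library. Promoters are the 250 bases before the most frequent transcript start in RefSeq TAIR10.1, for all 46 members. Ties between starts went to the start nearest the coding side. Protein sequences were not used here.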

Additional observations from a re-analysis of the deposited data

How the results depend on the processing

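Of the counts of called members recomputed under another setting (leaving out single libraries aside), 119 stayed within 1.5 times and 33 did not. Most comparisons called no member in the main fit, and a count of 0 that stayed 0 is among the 119. Higher and lower calls were pooled in each count. The tally therefore does not measure how stable the calls were. Of the single-gene differences 233 kept direction and side of the threshold, 65 lost and 3 gained a call, and none changed sign. With the library type as a block the count went from 12 to 21 for the mean ABA response, from 3 to 5 for ABA in the labelled combination, from 1 to 2 in nrp1 nrp2 and from 0 to 1 in FyPP3DN, and for FyPP3DN against WT from 0 to 6 without ABA, from 2 to 10 with ABA and from 12 to 26 in the mean. With a replicate block it went to 20 for the mean ABA response and to 5 in the labelled combination, and for FyPP3DN against WT to 4, 8 and 20. The replicate block changed no other count by over 1.5 times. Over all 19500 genes it called 2715 higher and 2521 lower for the mean ABA response, from 2491 and 2247. For FyPP3DN against WT it called 116 genes lower without ABA (from 65), 181 with ABA (from 150) and 344 in the mean (from 236). In the plastid-poor libraries alone it was 1 for ABA in WT, 0 in nrp1 nrp2, 1 in the labelled combination, and 0 with ABA and 1 in the mean for FyPP3DN against WT, with 16 libraries in place of 24. With only the groups compared in the fit it was 1 for ABA in WT, 0 in nrp1 nrp2, 0 and 0 for FyPP3DN against WT with ABA and in the mean, and 1 (from 0) for nrp1 nrp2 against WT in the mean. With no filter on low values it was 1 in WT, 0 in nrp1 nrp2, 7 for the mean ABA response, 1 with ABA and 3 in the mean for FyPP3DN. Of 26593 genes, that fit called 2648 higher and 2499 lower for the mean ABA response, and 243 lower for FyPP3DN in the mean. Median-of-ratios scaling gave 1 in WT and 0 in nrp1 nrp2, scaling to nuclear genes 0 in nrp1 nrp2, a pseudocount of 0.1 gave 0 in nrp1 nrp2 and 1 for FyPP3DN with ABA, and a filter of 5 FPKM gave 1 for FyPP3DN without ABA. Over all genes, median-of-ratios scaling called 875 of 19486 higher in WT and 688 in nrp1 nrp2. Scaling to nuclear genes called 564 of 19359 higher in nrp1 nrp2. A pseudocount of 0.1 called 606 of 19500 higher in nrp1 nrp2 and 114 lower for FyPP3DN with ABA. The filter of 5 FPKM called 43 of 14475 lower for FyPP3DN without ABA. The cause of these changes was not tested. For the fits on fewer libraries, among them those that leave out single libraries, the share of all genes called is not given here. Leaving out single libraries gave 0 to 2 for ABA in WT, 0 to 1 in nrp1 nrp2, 1 to 3 in the labelled combination, 10 to 15 for the mean ABA response, 0 to 4 for FyPP3DN against WT with ABA and 3 to 14 in the mean.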
